A study of Gallus gallus with 22 samples.

Results

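The effect of a diet with 2% sugarcane bagasse (SB) on the well-expressed genes of the broiler pancreas was described in 11 RNA-seq libraries. Members were all genes with a mean of at least 10 CPM over these libraries, where CPM are counts relative to the library total after scaling by the trimmed mean of M-values (TMM), a method that sets libraries to a common level through the bulk of their genes. This gave 6104 genes of 14116 tested in the pancreas and of 17007 in the count table, whose 22 libraries also include the jejunum. Both groups were male birds of a commercial broiler line, sampled on d 24. The 5 SB broilers received a corn diet to which 2% SB was added, and the 6 control broilers received the corn diet with 0% SB. Bagasse is the fibre left of sugarcane stalks once the juice is pressed out. From each pen 1 broiler was sampled, so each library stands for 1 bird of 1 pen. Per the paper, 6 broilers of each diet were sequenced, and samples judged outliers were excluded. These deviated from their diet group in a principal component analysis, and in the pancreas they also had lower performance. The SB group is thus left with 5 birds, and the effect of this exclusion on the spread between SB birds was not tested. The pancreas was sampled as whole tissue, in which fewer cells of a type and less RNA per cell cannot be told apart.

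Most of the pancreas consists of acinar cells, which make digestive enzymes and store them in granules until a meal triggers their release. A few secretory transcripts therefore fill much of the messenger RNA pool, and a change in one of them alters the share that remains for all other genes. Islets, ducts, vessels and resident immune cells make up the rest of the organ. Pancreatic enzyme output is known to follow the diet, and the comparison addresses whether adding insoluble fibre was accompanied by a change in pancreatic gene expression.

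Total counts of the SB libraries ranged from 80467800 to 300479804 with a median of 186019684, and those of the control libraries from 65957320 to 166039437 with a median of 74145354.5. Depth was thus higher with SB (exact permutation test of log2 totals, two-sided, p = 0.0238). All these totals exceed the mean raw and clean reads that the paper reports for the pancreas of either diet, and the reason is not known here. After each library was thinned to the smallest total, 16 members passed the DEG thresholds given below, against 15 at full depth. The first principal component of the members' log2 CPM held 48.6% of the variance and did not follow the diet (exact permutation test, p = 0.682). It was lowest in SB replicate 1 (-23.6) and control replicates 2, 4 and 6 (-30.4, -26.0 and -14.8). In these libraries the 15 most abundant transcripts, described below, took the smallest share of counts (59.7%, 59.6%, 59.9% and 62.7%). The cause of this was not tested. The counts carry gene identifiers without symbols. Symbols were taken only from the study's lists of changed genes, which gave a symbol to 10 of the 6104 members. Lists of acinar, islet, ductal or immune marker genes could therefore not be applied, and the tissue label was not checked against such markers.

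No well-expressed gene passed an adjusted P of 0.05. The smallest Benjamini-Hochberg adjusted P of edgeR's quasi-likelihood test was 0.495, and the count was 0 of 6104 members, as it was over all genes tested (0%). An unadjusted P under 0.05 was found for 208 members, or 3.41%, beside 3.85% of all genes tested. Expression was higher with SB in 96 of these and lower in 112. Neither 3.41% nor 3.85% exceeded the share of 0.05 that such a threshold passes by chance. The 208 became 129 without SB replicate 5 and 319 without control replicate 5. The split depended on the scaling: with upper-quartile factors, 129 were higher and 94 lower, and with total counts alone, which moved the median log2 fold change of all genes from -0.01 to -0.11, 48 were higher and 174 lower. The Wald test of DESeq2 called 6 of the 6104 members after adjustment, beside 15 of all 14116 genes tested. It gave 251 members an unadjusted P under 0.05. Limma-voom called 0 members, with 193 at such a P. The 6 genes that DESeq2 called are described below.

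Most estimates were close to no change. The median log2 fold change (SB over control) of the members was 0.00, the 10th and 90th percentiles were -0.19 and 0.16, and 5517 members, or 90.4%, had an estimate within 1.2-fold. A size of 2-fold or more was estimated for 47 members, which is 0.77% beside 2.54% of all genes tested. Birds of the same diet differed more than the diets did. The median within-diet SD of log2 CPM was 0.20, and the difference between diet means exceeded this SD in 624 members, or 10.2%.

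**Figure D1:**
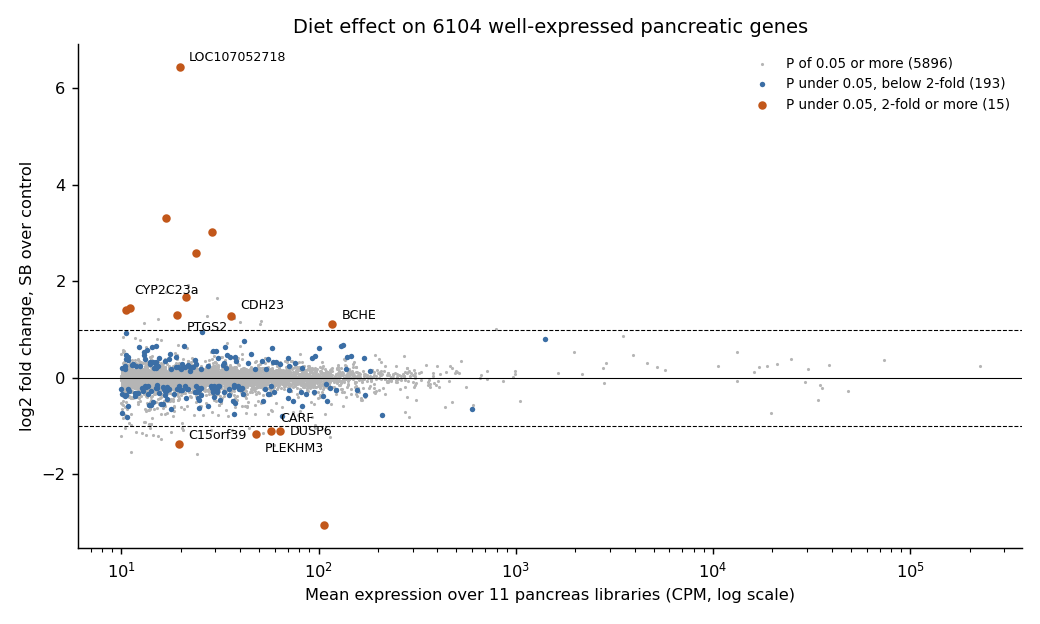
Log2 fold change (SB over control) of the 6104 well-expressed pancreatic genes against their mean expression in CPM on a log scale. Orange points are the 15 genes with at least a 2-fold estimate and an unadjusted P under 0.05, blue points the 193 smaller ones with such a P, and dashed lines mark 2-fold. Most points lie close to 0 at every level of expression.

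The 95% confidence intervals show how large a change the libraries leave room for in each gene. Their half-width had a median of 0.26 on the log2 scale, equal to 1.19-fold, and the middle 90% of members lay between 0.15 and 0.84. For the 8012 less expressed genes tested, the median was 0.58, or 1.5-fold. The narrowest interval, for a gene at 70.7 CPM, ran from -0.11 to 0.11, and its CPM was 70.6, 68.9, 70.0, 71.3 and 72.6 in the SB libraries, against 69.0, 70.1 and 73.9 (lowest, median and highest) in the control libraries. The next 2 narrowest had half-widths of 0.11 at 61.3 and 45.0 CPM. These are genes whose 11 libraries barely differed. At the other end, a gene with a mean of 21.7 CPM had 0.132, 1.05, 1.36, 172 and 7.37 CPM with SB, against 0.149, 5.59 and 33.6 CPM (lowest, median and highest) in control broilers. SB replicate 4 stood far above the other 10 libraries, and the interval ran from -1.42 to 5.27 around an estimate of 1.93. Among the members, only LOC107052718, described below, had a wider one.

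Intervals lay wholly inside 2-fold for 5703 members, or 93.4%, beside 75.9% of all genes tested. Inside 1.5-fold lay 5049 members (82.7%, beside 56.6%), and inside 1.2-fold 1648 (27%, beside 13.2%). The far end of the interval reached a median of 1.27-fold and stayed under 1.72-fold for 90% of members. Each interval holds for its own gene and not for all genes at once. Equivalence was therefore also tested by 2 one-sided tests with adjustment over all genes tested. Changes of 2-fold or more were rejected at an adjusted p under 0.05 for 5759 members (94.3%, beside 79% of all genes tested), and changes of 1.5-fold or more for 5101 (83.6%, beside 57.9%). At 1.2-fold, the test passed for 0 members and 0% of all genes, so that shifts of this size were below what 5 and 6 birds can bound after adjustment.

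Precision did not improve with abundance. The median half-width was 0.25 for the 3668 members at 10 to 30 CPM and 0.25 for the 2000 members at 30 to 100 CPM. It was 0.34 for the 405 members at 100 to 1000 CPM and 0.89 for the 31 members at 1000 CPM or more. The within-diet SD followed the same order, with medians of 0.19, 0.19, 0.28 and 0.47, so the most abundant transcripts varied most between birds in TMM-scaled CPM. That spread depends in part on the TMM factors, which ranged from 0.803 to 1.298 over the libraries. As a share of counts, the 15 most abundant transcripts together ranged from 59.6% to 69.4%. Judged by the deposited counts, whose totals exceed the reads that the paper reports, counting error was small in comparison. The lowest count of a member over the 11 libraries had a median of 1265. For 401 members the interval reached 2-fold or beyond, and for 354 of them the estimate itself was below 2-fold, so a 2-fold change was neither shown nor bounded there.

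**Figure D2:**
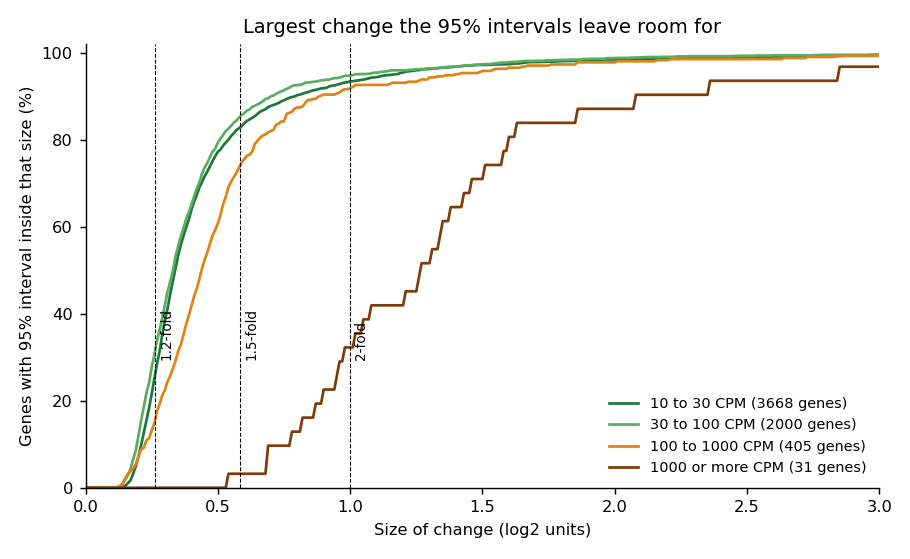
Share of well-expressed genes (percent, vertical axis) whose 95% interval lies inside a change of the size on the horizontal axis (log2 units), by mean expression, with dashed lines at 1.2-, 1.5- and 2-fold. At 2-fold, 93.4% of the genes at 10 to 30 CPM, 94.8% at 30 to 100 CPM and 91.9% at 100 to 1000 CPM lie inside, against 32.3% of the 31 genes at 1000 CPM or more.

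The intervals of the most abundant genes depended on the model. The fit ties the spread of each gene to a trend with abundance, and for the most abundant gene the prior variance of that trend was 394, beside a median of 0.43 over the members. Its half-width was 3.33 on the log2 scale in this fit, 0.97 in edgeR's earlier quasi-likelihood method and 0.62 in limma-voom. For the 31 genes at 1000 CPM or more, the median half-width was 0.61 with limma-voom, and 67.7% of their intervals lay inside 2-fold. The intervals of these methods are therefore given beside those of the main fit for the abundant genes.

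The 15 most abundant transcripts took 59.7% to 68.8% of all counts in the SB libraries (mean 65.7% ± 3.64, SD, n = 5) and 59.6% to 69.4% in the control libraries (mean 64.6% ± 4.46, SD, n = 6). The shares did not differ beyond the spread between birds (exact permutation test, two-sided, p = 0.647). A common property that the selection did not use is their restriction to this tissue, since their mean CPM in the jejunum was at most 7.33 and under 1 CPM for 10 of the 15, against at least 16184 CPM in the pancreas. In contrast, 5838 members, or 95.6%, also reached 10 CPM in the jejunum.

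The most abundant transcript, ENSGALG00010011790, had 167049, 252599, 259443, 262229 and 286138 CPM in the SB libraries, against 118134, 205232 and 312015 CPM (lowest, median and highest) in the control libraries. SB replicate 1 was the low one of its group, and the control libraries covered the whole SB range. Its share of all counts averaged 23.4% ± 1.83 (SD, n = 5) with SB and 20.4% ± 3.54 (SD, n = 6) in control broilers, a difference of 2.94 percentage points (exact permutation test, p = 0.152). The log2 fold change was 0.25 (95% interval -3.08 to 3.57, edgeR adjusted P = 0.995), with an interval of -0.72 to 1.22 by edgeR's earlier method and -0.33 to 0.91 by limma-voom. A log2 fold change of 1 thus lay outside the interval by limma-voom but inside it by the earlier method.

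The second most abundant transcript had 47080, 92283, 85259, 95137 and 99019 CPM with SB, against 36461, 68426 and 87231 CPM in control broilers. Here 3 of the 5 SB libraries lay above every control library, while SB replicate 1 was again the lowest of its group, and the log2 fold change was 0.38 (95% interval -1.31 to 2.07, and -0.23 to 1.01 by limma-voom). The third had 34337, 56570, 37527, 45295 and 41674 CPM with SB, against 34537, 55292 and 63500 CPM in control broilers, with a log2 fold change of -0.28 (-1.57 to 1.02, and -0.74 to 0.17 by limma-voom). SB replicate 1 lay just below the lowest control library, and the other 4 SB libraries lay within the control range.

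Over the 15 transcripts, 9 had a higher and 6 a lower estimate with SB, with a median log2 fold change of 0.20. This split was the same with the size factors of DESeq2, upper-quartile factors or total counts alone. It was 8 and 7 with the log2 total count as a covariate, and 10 and 5 without SB replicate 1 or control replicate 5. With total counts alone, 2 of the 15 had an unadjusted P under 0.05. None of the 15 separated the diets without overlap. The estimate farthest from 0 belonged to the twelfth transcript, which had 11765, 17860, 14084, 18158 and 10675 CPM with SB, against 16525, 20818 and 39446 CPM in control broilers. In 3 of the 5 SB libraries it lay below every control library, and its log2 fold change was -0.73 (95% interval -1.63 to 0.16, unadjusted P = 0.0978, adjusted P = 0.995). By edgeR's earlier method the interval ran from -1.38 to -0.09 and by limma-voom from -1.28 to -0.16, and the exact permutation test gave p = 0.0195, which is unadjusted for the 15 transcripts so tested. This was the only one of the 15 with an unadjusted P under 0.05 by limma-voom or by the earlier method.

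**Figure D3:**
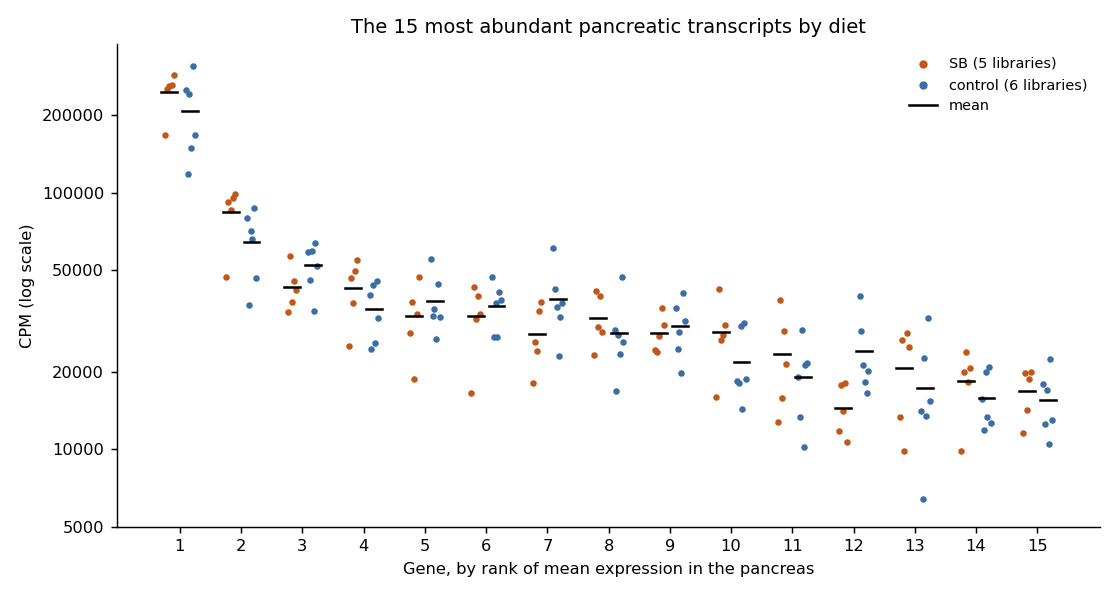
Expression of the 15 most abundant pancreatic transcripts, in CPM on a log scale, ordered by mean expression, with a point for each library (5 SB, orange, left, and 6 control, blue, right) and a bar for the mean. The groups overlap for every transcript, and the twelfth shows the lowest SB values relative to control, with 3 SB libraries below all 6 control libraries.

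At least a 2-fold estimate and an unadjusted P under 0.05, the thresholds by which the study defined differentially expressed genes (DEGs), were met by 15 members. Of these, 10 were higher with SB (0.164%, beside 0.659% of all genes tested) and 5 were lower (0.0819%, beside 0.439%). DEGs made up 1.75% of the 8012 less expressed genes. None of the 15 had an adjusted P below 0.942 by edgeR. In 6 of the 10 higher ones, the control mean was under 10 CPM, so these entered the set through their SB libraries. The symbols of 9 of the 15 are known because the study listed them as changed on the same samples, so that list is not independent evidence of their direction. The same holds for DEGs without a symbol that the study also lists as changed, among them ENSGALG00010023042. The count of 15 became 26 without SB replicate 1, 24 without control replicate 5 and 23 with the log2 total count as a covariate, which kept 11 of the 15. For 6 of the 15, both thresholds were met whichever library was left out. These were C15orf39 and otherwise only genes with a control mean under 10 CPM, which entered the set through their SB libraries. The members were kept the same in these fits. LOC107052718 therefore stayed counted without SB replicate 5, the library through which it is a member. ENSGALG00010002378 also stayed counted when SB replicate 5, its highest library at 27.1 CPM, was dropped. Another of these DEGs, without a symbol, reached 100.3 CPM in SB replicate 1 and was still counted when that library was dropped. In each case the remaining libraries averaged under 10 CPM, so the gene was kept there only because the members were fixed.

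DUSP6 (chromosome 1, 43341540 to 43346237, GRCg7b), a phosphatase that switches off ERK kinases after growth factor signalling, had 35.8, 25.6, 59.7, 31.5 and 43.6 CPM with SB. The control libraries had 41.3, 75 and 155 CPM (lowest, median and highest). SB libraries were low throughout and 3 of the 5 lay below every control library, although the lowest control libraries reached into the SB range. This gave a log2 fold change of -1.11 ± 0.35 (SE, 95% interval -1.87 to -0.35, unadjusted P = 0.00825, adjusted P = 0.995, exact permutation p = 0.0325). With the log2 total count as a covariate it was -0.59, with an unadjusted P of 0.25.

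CARF, a calcium-responsive transcription factor, and PLEKHM3, a pleckstrin homology domain protein, showed a similar profile. PLEKHM3 had 42.0, 24.3, 18.2, 25.9 and 32.8 CPM with SB, against 31.0, 54.9 and 109 CPM in control broilers (log2 fold change -1.16, 95% interval -2.0 to -0.33, unadjusted P = 0.0106). CARF had 59.4, 27.5, 22.5, 30.7 and 35.9 CPM with SB, against 37.2, 60.7 and 137 CPM in control broilers (log2 fold change -1.10, -1.96 to -0.24, unadjusted P = 0.0166). Control replicates 1 and 3 were the highest 2 libraries of DUSP6, PLEKHM3 and CARF alike, and 3 control libraries of the last 2 genes stayed under 45 CPM. Without control replicate 1 the log2 fold changes were -0.84 for DUSP6, -0.95 for PLEKHM3 and -0.85 for CARF, all below the 2-fold threshold. Leaving out control replicate 3 also put all 3 genes below it, DUSP6 narrowly, PLEKHM3 at -0.98 and CARF at -0.93. Leaving out SB replicate 2 did the same for DUSP6 (-0.99), and leaving out SB replicate 3 for CARF (-0.98). The unadjusted P of each gene stayed under 0.05 in all 11 fits that left out a library. In the RefSeq annotation of GRCg7b, CARF (chromosome 7, 11598924 to 11635638) and PLEKHM3 (chromosome 7, 11631766 to 11764483) share 3873 bases. Whether the counting used strand is not given in the sources used here, so reads from the shared stretch cannot be told apart. With depth as a covariate, the unadjusted P was 0.173 for PLEKHM3 and 0.179 for CARF.

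C15orf39 (chromosome 10, 2372506 to 2378701) was the other lower gene with a symbol. It had 7.27, 10.0, 26.3, 5.42 and 3.74 CPM with SB, against 8.35, 31.4 and 36.6 CPM in control broilers, so that SB replicate 3 and 1 low control library crossed the groups (log2 fold change -1.37, 95% interval -2.47 to -0.27, unadjusted P = 0.0191). Without SB replicate 3 the estimate was -2.04, and without SB replicate 5 it was -1.16, with an unadjusted P of at most 0.0461 over the fits that left out 1 library. Without SB replicates 1 and 5 together, a choice made after seeing the data, it was -0.97, and the call was lost (unadjusted P = 0.103).

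PTGS2 (chromosome 8, 10138921 to 10147005), the inducible cyclooxygenase of prostaglandin synthesis, had 11.7, 54.7, 11.2, 22.5 and 42.3 CPM with SB, against 5.65, 12.1 and 15.3 CPM in control broilers. In 3 SB libraries it was above every control library, and in SB replicates 1 and 3 it was at the control level. Its log2 fold change was 1.31 ± 0.42 (SE, 95% interval 0.38 to 2.23, unadjusted P = 0.0099, adjusted P = 0.995, exact permutation p = 0.0584). Without SB replicate 2 the estimate was 0.93, below the 2-fold threshold (unadjusted P = 0.0387).

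For 3 further genes, a single SB library carried most of the difference. LOC107052718 (chromosome 1, 122365545 to 122370267) had 0.536, 0.434, 0.978, 5.39 and 209 CPM with SB, against 0.112, 0.363 and 1.12 CPM in control broilers, and it is a member only through SB replicate 5. Its log2 fold change of 6.45 (95% interval 2.72 to 10.18, the widest of all members, unadjusted P = 0.00281) became 1.87 without that library. By limma-voom it was 1.77 (-3.10 to 6.64, unadjusted P = 0.443), and DESeq2 gave the gene no P. BCHE (chromosome 9, 20653901 to 20703339), the secreted butyrylcholinesterase that splits choline esters, had 83.5, 97.4, 88.2, 106 and 457 CPM with SB, against 32.8, 81.9 and 107 CPM in control broilers. Its log2 fold change of 1.12 (0.09 to 2.15, unadjusted P = 0.036) became 0.29, with an unadjusted P of 0.287, without SB replicate 5. By limma-voom it was 0.97 (-0.04 to 1.99, unadjusted P = 0.0588), and DESeq2 gave BCHE no P either. CYP2C23a (chromosome 6, 18351042 to 18358414), a cytochrome P450 enzyme, had 7.46, 11.0, 4.25, 50.8 and 6.30 CPM with SB, against 2.81, 4.95 and 13.9 CPM in control broilers. Here the log2 fold change of 1.41 (0.01 to 2.80, unadjusted P = 0.0481) became 0.27, with an unadjusted P of 0.528, without SB replicate 4. By limma-voom it was 0.78 (-0.73 to 2.30, unadjusted P = 0.282). With a control mean of 5.97 CPM, CYP2C23a is a member only through SB replicate 4, so its P is not independent support for a diet effect. The P stayed under 0.05 in 7 of the 11 fits that left out a library for BCHE and in 4 for CYP2C23a. For BCHE the call was also lost without control replicate 1, 2 or 6 (P up to 0.0654), and for CYP2C23a without SB replicate 2 or any 1 of control replicates 1 to 5 (P up to 0.0892).

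CDH23 (chromosome 6, 12518477 to 12647045), a cadherin of the tip links between hair cell stereocilia, had 32, 15.6, 34.6, 76.2 and 106 CPM with SB, against 8.45, 17.5 and 42.9 CPM in control broilers (log2 fold change 1.28, 95% interval 0.09 to 2.47, unadjusted P = 0.0376). Only SB replicates 4 and 5 exceeded the control range, and without SB replicate 5 the estimate was 0.86, with an unadjusted P of 0.135. The P was under 0.05 in 5 of the 11 fits that left out a library, and the call was also lost without SB replicate 4 or any 1 of control replicates 1 to 4. The remaining member with a symbol, FAM179A (chromosome 3, 8737382 to 8787541, also TOGARAM2), is named because its symbol was known from the jejunal list and not by the rule for named genes. It had 18.1, 57.2, 22.3, 44.0 and 32.1 CPM with SB, against 6.15, 16.3 and 35.4 CPM in control broilers, just below 2-fold (log2 fold change 0.96, 0.09 to 1.83, unadjusted P = 0.0332, which was under 0.05 in 6 of the 11 fits that left out a library).

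**Figure D4:**
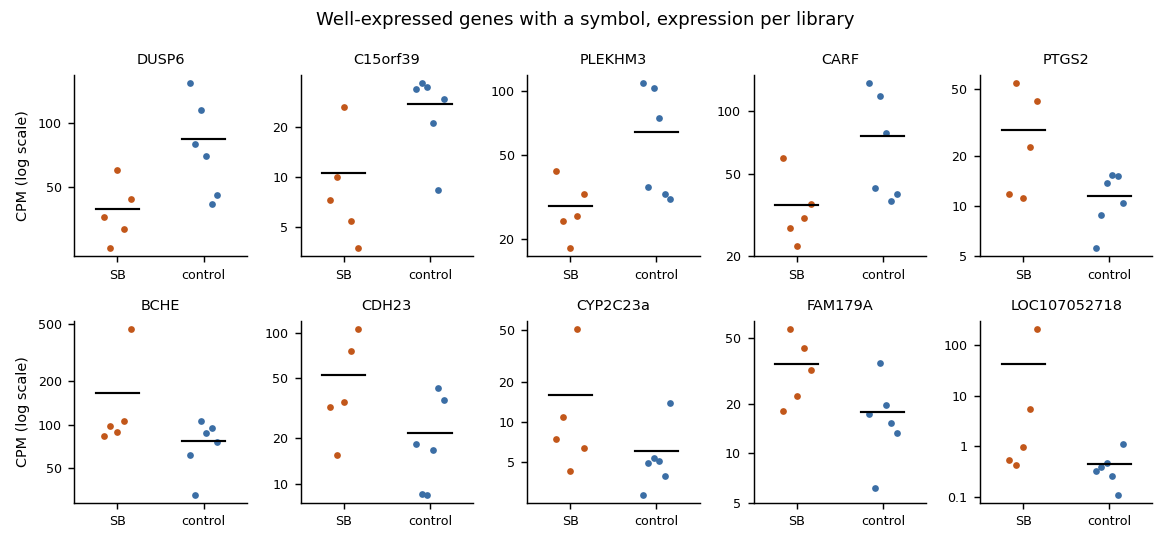
CPM per library (log scale) of the 10 well-expressed genes with a symbol, SB (5 libraries, orange) left of control (6 libraries, blue), with a bar for the mean. All 10 overlap between the diets, and 1 SB library stands far above the rest in BCHE (457 CPM), CYP2C23a (50.8 CPM) and LOC107052718 (209 CPM).

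Of the 6 DEGs without a symbol, 5 were higher with SB and 4 of these were among the 6 genes called by DESeq2. ENSGALG00010023042 had 78.3, 50.4, 15.3, 5.92 and 70.2 CPM with SB, against 4.67, 7.18 and 10.1 CPM in control broilers. In 4 SB libraries it was above every control library and in SB replicate 4 it was at the control level. The log2 fold change was 2.58 ± 0.54 (SE, 95% interval 1.39 to 3.77, unadjusted P = 0.000521, adjusted P = 0.942 by edgeR and 0.00083 by DESeq2). By limma-voom the log2 fold change was 2.04 (95% interval 0.49 to 3.59, unadjusted P = 0.0142). In 2 further genes of this kind, with log2 fold changes of 3.32 and 3.02, SB replicates 1 and 5 were likewise the highest 2 libraries, at up to 100.3 and 137.1 CPM, against at most 7.58 and 16.6 CPM in control broilers. Without these 2 libraries, a choice made after seeing the data, the 3 log2 fold changes were 1.70, 1.49 and 1.57, with unadjusted P between 0.0076 and 0.0154. Without SB replicate 1 alone, the last 2 were 2.30 and 2.35. The control means of the 3 genes were 7.36, 3.33 and 6.80 CPM, so all 3 entered the set through their SB libraries. Their P-values are therefore not independent support for a diet effect.

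ENSGALG00010002378 was the only DEG whose groups did not overlap. It had 12.2, 11.2, 19.2, 15.3 and 27.1 CPM with SB, against 2.87, 7.20 and 8.82 CPM in control broilers. The log2 fold change was 1.45 ± 0.33 (SE, 95% interval 0.72 to 2.17, unadjusted P = 0.001, adjusted P = 0.942 by edgeR and 0.0221 by DESeq2, exact permutation p = 0.00216, the smallest possible over 462 regroupings). Leaving out any 1 library gave values from 1.22 to 1.57. Its control mean was 6.24 CPM, so it entered the set through its SB libraries. It was singled out because its groups did not overlap, so these P-values are not independent support for a diet effect. The fifth, at a log2 fold change of 1.68, had 16.5 to 43.9 CPM with SB, against a wide range of 1.3 to 24.9 CPM in control broilers. Its unadjusted P of 0.0346 was under 0.05 in only 6 of the 11 fits that left out a library. The call was lost without SB replicate 2, 3, 4 or 5 or control replicate 5, with P up to 0.0636. By limma-voom the log2 fold change was 2.83 (95% interval 1.29 to 4.36, unadjusted P = 0.00176). The exact permutation test gave p = 0.0216, also unadjusted. The sixth was lower with SB at -3.05 (95% interval -6.08 to -0.02). It had 0.315, 38.8, 37.2, 29.9 and 0.242 CPM with SB, against 20.5, 35.1 and 493 CPM in control broilers, with 2 control libraries at 453 and 493 CPM and 2 SB libraries under 1 CPM. The unadjusted P of 0.0487 became 0.0522 by edgeR's earlier method and 0.0514 by limma-voom, and it was under 0.05 in only 4 of the 11 fits that left out a library. The call was lost when any single SB library was left out, and also without control replicate 4 (estimate -2.41) or control replicate 6 (estimate -2.51).

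Shifts below 2-fold with an unadjusted P under 0.05 were found in 193 members, a count that became 115 without SB replicate 5 and 295 without control replicate 5. Expression was higher with SB in 86 (1.41%, beside 1.35% of all genes tested) and lower in 107 (1.75%, beside 1.4%). A stricter description is that all 5 SB libraries lie on one side of all 6 control libraries. Counting shifts of any size, 5 members had all SB libraries above (0.0819%, beside 0.128% of all genes tested) and 12 had all below (0.197%, beside 0.149%). Apart from ENSGALG00010002378, these 17 genes were all below 2-fold, with 4 higher and 12 lower with SB. All 16 also reached 10 CPM in the jejunum, with means of 22.8 to 349.6 CPM, as did 95.6% of all members. None has a symbol here, which only 10 of the 6104 members have. Their fold sizes ranged from 1.07 to 1.47, and 14 of the 16 had an unadjusted P under 0.05, which 13 kept in every fit that left out a library. Since the genes were picked for their separation, these P-values are not independent support for a diet effect. Of the 462 regroupings of the libraries, 1 puts all SB libraries above and 1 puts all below. By chance, a share of 0.00216 of genes would therefore separate in each direction. The shares of members, 0.0819% above and 0.197% below, did not exceed this chance level.

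The most consistent of these was ENSGALG00010029774, which also had the smallest P of all members. It had 10.1, 12.2, 10.7, 12.2 and 11.2 CPM with SB, against 14.9, 16.5 and 18.9 CPM in control broilers, so the groups were apart by more than 2 CPM. The log2 fold change was -0.55 ± 0.09 (SE), or 0.681-fold, with a 95% interval of 0.597- to 0.777-fold. The unadjusted P was 4.14e-05, with an adjusted P of 0.495 by edgeR and 1.87e-05 by DESeq2. Leaving out each library in turn gave -0.58 to -0.51, and with depth as a covariate the estimate was -0.54. ENSGALG00010027968, the other lower gene called by DESeq2 (adjusted P = 0.0424), had 22.8, 21.3, 18.9, 19.6 and 20.5 CPM with SB, against 22.3, 28.8 and 33.2 CPM in control broilers. A single SB library, replicate 1, exceeded the lowest control library, and the log2 fold change was -0.47 ± 0.10 (SE, 95% interval -0.69 to -0.24, unadjusted P = 0.000811, adjusted P = 0.942 by edgeR). The other 4 of the 6 lower genes with the smallest P had log2 fold changes between -0.74 and -0.36. Below 2-fold, the 2 higher genes among the 6 with the smallest P in that direction had 0.66 and 0.43. In each of these, 4 of the 5 SB libraries lay beyond every control library.

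The other lower genes without overlap were smaller in size. The second by P had 30.3, 29.9, 32.6, 28.0 and 26.7 CPM with SB, against 33.1, 35.7 and 40.6 CPM in control broilers (log2 fold change -0.29, 95% interval -0.46 to -0.13). The fourth had 76.6, 71.0, 80.2, 75.1 and 62.7 CPM with SB, against 82.6, 87.6 and 96.4 CPM in control broilers (-0.28, -0.45 to -0.11). For both, the gap between the groups was under 3 CPM. Of the 4 higher genes, the one with the smallest P had 15.8, 17.3, 16.2, 17.9 and 16.3 CPM with SB, against 13.0, 14.3 and 15.2 CPM in control broilers (0.24, 0.08 to 0.39). The one with the greatest estimate had 15.1, 10.8, 11.7, 11.3 and 11.9 CPM with SB, against 7.41, 9.45 and 10.6 CPM in control broilers (0.40, 0.13 to 0.67), at most 1.59-fold by its interval. Each of these intervals lay away from 0 and below 2-fold. The genes were picked because their groups did not overlap, so an interval away from 0 follows in part from the selection. Such an interval does not hold its stated 95% coverage. The higher gene with the greatest estimate had a control mean of 9.21 CPM, so it also passed the floor through its SB libraries. Of the lower genes without overlap, the fifth and thirteenth by P had SB means of 9.82 and 9.13 CPM. These passed the floor through their control libraries. None of the genes below 2-fold without overlap passed adjustment over all genes tested by edgeR.

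**Figure D5:**
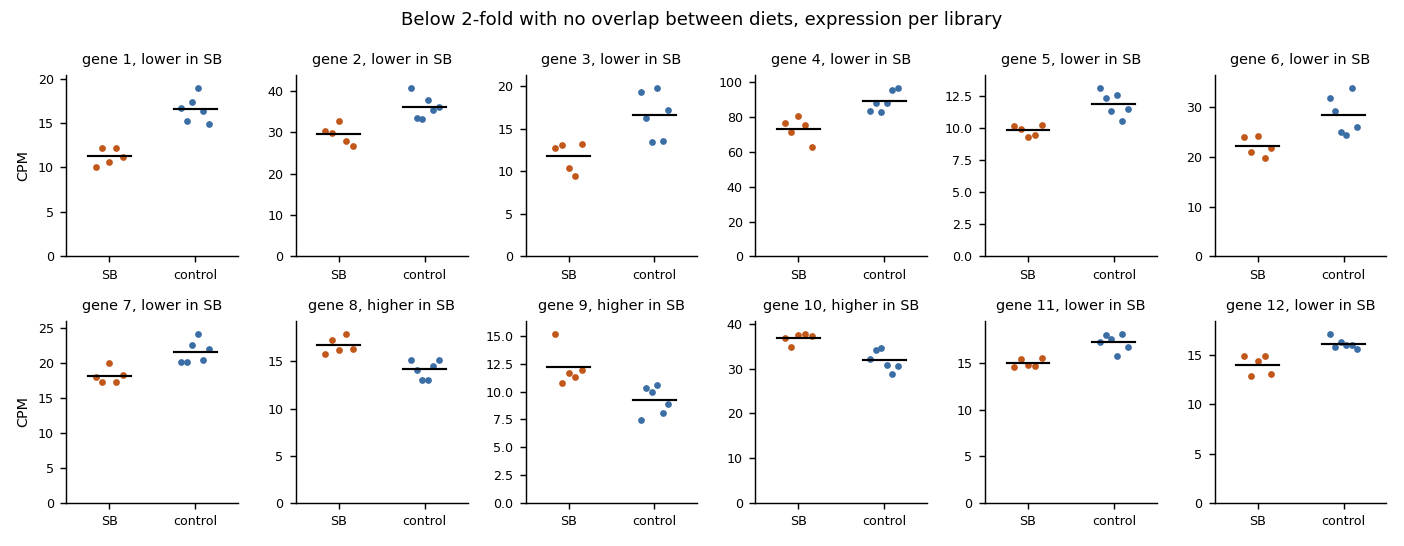
CPM per library of the 12 genes with the smallest P among the 16 below 2-fold whose diets do not overlap, SB (5 libraries, orange) left of control (6 libraries, blue), with a bar for the mean and axes that start at 0. Genes 1 to 7, 11 and 12 are lower and genes 8 to 10 higher with SB, by fold sizes of at most 1.47.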

How the data were processed

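Per the labels, the libraries were stranded mRNA libraries. Per the paper, FASTQ files were made with DRAGEN BCL Convert, and reads were trimmed with Trimmomatic, aligned to GRCg7b with STAR and counted with HTSeq. The authors deposited whole-number counts per Ensembl gene without normalization, and a table of normalized values that was not used here. Columns of no sample numbered 0.

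Low counts were removed by filterByExpr on diet, with a minimum of 15 counts in total. Its minimum count of 10, set at the median library size, was needed in as many libraries as the smaller diet group holds. Libraries were scaled by TMM and fitted with glmQLFit (legacy = FALSE, robust = FALSE) of edgeR 4.0.16 in R 4.3.3. Adjustment (Benjamini-Hochberg) covered all 14116 genes tested. A standard error is the size of the estimate divided by the square root of F, and 95% intervals use the t quantile at the fit's degrees of freedom. DESeq2 1.42.0, limma-voom (limma 3.58.1), other scalings, filters, floors of 5 and 50 CPM, thinning, depth as a covariate, the replicate number as a block and each library left out were alternatives. Exact permutation tests used all 462 regroupings of log2 CPM and are unadjusted. The procedure was run on simulated data with the same dispersion for every gene. That setting cannot show how the intervals behave for the most abundant genes, whose spread was larger.

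The 2 means nearest the floor from outside were 9.997 and 9.998 CPM, and the 2 from inside 10.002 and 10.008 CPM, with log2 fold changes between -0.19 and 0.03. The mean of 1 diet was under 10 CPM in 191 members. No 2 libraries of a diet agreed within sampling noise (smallest chi-square per gene 128.5).

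Symbols were matched through the fold changes and P-values of the study's lists of changed genes, to 3 decimals, by edgeR's earlier method with robust estimation. A single identifier was found for 123 of 125 pancreatic and 41 of 41 jejunal entries, and all 30 and 11 entries listed by identifier fell on their own. Coordinates are those of RefSeq for the symbol. Named genes are the 15 most abundant, the 6 smallest P in each direction, the DEGs, genes below 2-fold without overlap, the widest and narrowest intervals, and pancreas genes the study names; identifiers without symbols are printed for 5 genes. Members and lists were chosen with earlier results of these data known. Lists of marker and pathway genes were not used here, since their symbols had no identifiers.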

Additional observations from a re-analysis of the deposited data

Results flagged for a closer look

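Of 108 groups of libraries examined (54 named genes in 2 diets), 11 held a library far from the others of its diet by Dixon's test at the 95% level. For normally distributed values, chance would give about 1 in 20, or 5.4. The test was run on CPM without logarithms, and 8 of the 11 flags were of a high library. Since the named genes were also picked by their values, 5.4 is not a firm chance level here. In SB replicate 1, the most abundant transcript was low at 167049 CPM, and the second most abundant was low at 47080 CPM, beside the next values of 252599 and 85259 CPM. SB replicate 5 was high for LOC107052718, at 209 CPM, and for BCHE, at 457 CPM, beside the next values of 5.39 and 106 CPM. CYP2C23a was high in SB replicate 4, at 50.8 CPM, and in control replicate 6, at 13.9 CPM. C15orf39 was high in SB replicate 3, at 26.3 CPM. LOC107052718 was also high in control replicate 6, at 1.12 CPM. Of the unnamed genes, a DEG higher with SB was high in control replicate 3 at 7.58 CPM. In the genes below 2-fold without overlap, SB replicate 1 was high at 15.1 CPM in one and SB replicate 2 was low at 34.8 CPM in another.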

How the results depend on the processing

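Of 1563 single-gene values under the alternatives, 1446 kept their direction and their side of the threshold of 0.05 (unadjusted), 103 were no longer under it, 9 came under it, and 5 reversed. The reversals were -0.0033 with total counts only (a gene without overlap) and -0.081 with depth as a covariate (the eleventh most abundant transcript). The sixth ranged from -0.25 to 0.033 with each library left out and was 0.079 without SB replicates 1 and 5, and the ninth ranged from -0.18 to 0.018. The 0 calls after adjustment became 6 with DESeq2 alone and stayed 0 in every fit that left out a library. For the 208, 15 and 193 members (unadjusted P under 0.05, DEGs, smaller shifts) and the 5703 and 1648 intervals inside 2-fold and 1.2-fold, a floor of 50 CPM gave 49, 4, 45, 1173 and 284, since fewer genes are members, with 2 of the 16 without overlap, and a floor of 5 CPM gave 30 DEGs. Depth as a covariate gave 23 DEGs, 119 smaller shifts and 357 intervals inside 1.2-fold, total counts only 391, and leaving out SB replicates 1 and 5, a choice made after seeing the data, 874. It also gave 66 genes without overlap. Leaving out each library gave 129 to 319, 11 to 26 and 115 to 295 members, and 24 to 65 without overlap, as fewer libraries overlap less. The half-width of the most abundant gene (3.33) was 0.59 with total counts only, 0.48 with DESeq2, 0.62 with limma-voom, 0.97 with the earlier method, 0.69 with robust estimation, 0.62 with only members fitted, 5.21 with depth as a covariate, and 0.56 with limma on log2 CPM (added after seeing the data). Without that gene in the table, its own values could not be computed. The depth covariate also left CYP2C23a and FAM179A with unadjusted P of 0.618 and 0.264.

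Same-numbered SB and control libraries share only a number: their deviations correlated at -0.38, -0.59, -0.14, -0.05 and 0.23. With the replicate block, 117 members had an unadjusted P under 0.05, 14 were DEGs, 103 were smaller shifts, 518 intervals lay inside 1.2-fold, and the half-width of the most abundant gene was 7.40. In this fit and in that with depth as a covariate, 1 gene had no usable standard error.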
